A study of Mus musculus with 5 samples.

Results

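Mitosis was followed through 10 genes, Mki67, Top2a, Cdk1, Ccnb1, Aurka, Aurkb, Plk1, Bub1, Cenpf and Ube2c, out of the 23172 genes counted in 5 single-cell RNA-seq libraries of mouse colon. The genes were taken by name, not by their values, and all 10 were counted in every file. The main measure was the share of cells in which at least 2 of the 10 genes had a unique molecular identifier (UMI, a tag that marks 1 captured transcript) after each cell had been thinned at random to 1000 UMIs. It was read in columnar, squamous, T, B, endothelial and fibroblast cells of each library, among cells with at least 500 genes and at most 15% mitochondrial counts.

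The libraries were made by inDrop, in which single cells are caught in droplets with barcoded beads. 4 came from colon tumors of wild-type (WT) mice given azoxymethane (AOM, a colon carcinogen) and dextran sodium sulfate (DSS, which inflames the colon) and then 5FU+Irinotecan, a pair of drugs that block thymidylate synthesis and topoisomerase I. They comprised 2 libraries of day 1, called early treatment, and 1 library each of day 3 and day 6, called late treatment, made by the labelled normal dissociation, in which tumor crypts held back by a filter were kept and the flow-through was discarded. The other library came from untreated WT colon by a fibroblast dissociation that shakes crypts off and keeps the stroma, and it carried neither tumor nor drug. The mice were of C57BL/6J or mixed C57BL/6J;129 background by the methods. Neither ages nor doses are in the labels, the methods count the days from the last cycle of treatment whereas the results of the study speak of days of treatment, and no untreated tumor was analysed here. The single index structure, read on the MGI-Seq, was used for day 1 replicate 1 and for day 3, the dual index structure, read on the NovaSeq, for the other libraries, so each structure held 1 early and 1 late tumor library.

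The 10 products act in the last part of the cell cycle. Cyclin B1 (Ccnb1) activates CDK1 (Cdk1), the kinase that drives entry into mitosis, and polo-like kinase 1 (Plk1) and the Aurora kinases A and B (Aurka, Aurkb) build the spindle, attach chromosomes to it and part the daughter cells. BUB1 (Bub1) and centromere protein F (Cenpf) work at the kinetochore, topoisomerase II alpha (Top2a) untangles DNA, Ki-67 (Mki67) coats mitotic chromosomes, and UBE2C (Ube2c) hands ubiquitin to the anaphase-promoting complex, which destroys cyclin B. In healthy colon, division is held to the lower crypt, and surface cells, most stromal cells and circulating neutrophils have left the cycle.

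Transcription of such genes peaks in G2 and M and is known to run through promoter elements named CHR, bound by the MuvB complex, and CCAAT boxes, bound by NF-Y. To show what the members shared in sequence, both words were searched on both strands in the 250 bases before the RefSeq start (GRCm38.p6) of 32851 genes, 9 of the 10 members among them. The CHR, spelled TTTGAA or TTCAAA, lay before 4 of these 9 members (Mki67, Top2a, Cdk1 and Ube2c) and in 16.0% of all promoters. The CCAAT box, spelled CCAAT or ATTGG, lay before all 9 and in 33.8% of all promoters, and both words together in 5.55%. The words do not overlap in spelling, and a match is a description of letters, not a binding site. The 150-base pieces below, from chr7:135716380-135716529 (minus strand), chr11:99024190-99024339 (minus strand), chr10:69352939-69353088 (minus strand) and chr7:122159285-122159434 (plus strand), show 3 members with both words and, in Plk1, a member with a CCAAT box alone. Capitals mark the 2 words, and bases run 5′ to 3′ toward the start of the gene.
Mki67: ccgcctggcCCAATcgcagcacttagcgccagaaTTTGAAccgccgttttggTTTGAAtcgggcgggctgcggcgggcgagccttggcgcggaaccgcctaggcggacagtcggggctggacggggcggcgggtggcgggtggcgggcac
Top2a: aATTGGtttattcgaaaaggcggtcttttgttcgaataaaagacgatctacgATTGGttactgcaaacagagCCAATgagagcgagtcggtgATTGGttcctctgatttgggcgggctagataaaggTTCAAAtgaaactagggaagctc
Cdk1: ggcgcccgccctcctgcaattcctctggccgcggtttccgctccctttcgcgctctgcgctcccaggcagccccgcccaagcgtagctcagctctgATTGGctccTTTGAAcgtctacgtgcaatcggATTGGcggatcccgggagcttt
Plk1: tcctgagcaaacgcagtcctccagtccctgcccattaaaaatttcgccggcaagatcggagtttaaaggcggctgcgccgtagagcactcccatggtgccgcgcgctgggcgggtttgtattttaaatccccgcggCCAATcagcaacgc

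Among the lists set beside the members, 16 of 40 promoters of other G2 and M genes held a CHR and 29 a CCAAT box, against 5 and 21 of 31 promoters of S phase genes. By GENCODE vM21 (GRCm38) all 10 are protein-coding genes, and UMIs were counted per gene. Ube2c (chr2:164769898-164778822, plus strand) overlaps Tnnc2 on the other strand, and Mki67 (chr7:135689784-135716361, minus strand), Plk1 (chr7:122159439-122169873, plus strand) and Cenpf (chr1:189640606-189688086, minus strand) overlap the predicted genes Gm45240 and Gm44985 and the pseudogene Gm37239 there. Whether the counting used strand is not given in the sources used here, so reads of such pairs may not have been told apart. Ccnb1 has 1 processed pseudogene in the annotation, Ccnb1-ps, that the files do not list.

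The tumor libraries held 748, 2403, 1419 and 2826 cells after the filters (replicates 1 and 2 of day 1, then day 3 and day 6, the order kept for all values below) and the normal library 1095, with medians of 2903 to 3601 UMIs per cell and totals of 5132360 to 16904947 UMIs. Cells were clustered without the 10 genes and without S and G2/M genes, and clusters were named from markers, so that every name stands for a marker-based, columnar-like or squamous-like class. 161 barcodes occurred in more than 1 library. Scrublet called 12 doublets among the tumor cells and 7 in the normal library, too few to have worked, and no cell was removed for it. Columnar cells fell into clusters that mostly belonged to 1 library, and 1 of these clusters, led by Clca4a and holding 422 of the columnar cells of day 1 replicate 2, had the squamous marker Lamb3 and no columnar marker among its 10 leading genes. Columnar values are therefore also given without it. Columnar cells of every library had counts of all 17 columnar markers, and squamous cells of the tumors of all 15 squamous markers. Columnar cells of every tumor library had counts of all 15 squamous markers too. Such counts therefore do not tell the classes apart, and the clusters had been named from these same markers.

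Counts of columnar markers were found in every class. Summed over the columnar marker list, neutrophils had 0.807, 0.605, 0.741 and 0.394 times the CPM (counts scaled to a common total) of the columnar cells of their own library, in the order of the tumor libraries above. Summed over the 10 mitotic genes, the same ratio was 3.77, 0.872, 0.675 and 0.553. The value of 3.77 rested on 2 of 73 cells, with 42778 and 14559 UMIs, which held 77.2% of the 246 mitotic counts, and without them the neutrophils of day 1 replicate 1 stood at 353 CPM against 302 CPM in columnar cells. Mature neutrophils do not divide, and their shares are given for comparison.

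In columnar tumor cells, 13 of 277 cells (4.69%) of day 1 replicate 1 had at least 2 of the genes after thinning, and 59 of 1235 (4.78%) of day 1 replicate 2. The share was 162 of 889 (18.2%) on day 3 and 178 of 1230 (14.5%) on day 6, where 127 columnar cells under 1000 UMIs were left out. The 95% exact binomial intervals, which cover counting error only, ran from 2.52% to 7.89% and from 3.66% to 6.12% in the early libraries and from 15.7% to 20.9% and from 12.6% to 16.6% in the late ones. Neither late interval met an early one. Without the Clca4a cluster the shares were 4.53%, 3.44%, 18.3% and 14.5%.

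The late columnar share was 11.6 points above the early one (16.3% against 4.74%), 13.5 points within the single index libraries and 9.69 within the dual index libraries. With 2 libraries against 2, the exact permutation test (two-sided) cannot give less than p = 0.33, which it gave (0.667 adjusted over 5 cell types), so the difference stands as a description of 4 libraries. It was 3.91 points with thinning to 500 UMIs, 19.9 points at 2000 UMIs, 3.59 points for 3 or more genes and 7.11 points without Mki67 and Top2a. Different clusters held most of these cells, those led by Mt4, Fut9 and Clca4a on day 1, Gm7808 and Gprc5a on day 3, and Pigr, Clca4b and Gsdmc4 on day 6. Columnar cells were deeper in the early libraries (medians of 7031 and 5579 UMIs) than in the late ones (3083 and 2074 UMIs). Without thinning the shares were 37.9%, 27.7%, 56.5% and 44.2%. Neutrophils of the same libraries had 2.74%, 2.04%, 6.67% and 4.55% (2 of 73, 8 of 393, 2 of 30 and 1 of 22 cells, at medians of 2197, 2114, 1992 and 1403 UMIs). In this draw of UMIs their share was below the columnar one in 4 of 4 libraries, by 1.95 to 11.6 points (exact sign-flip permutation test, the smallest p 4 pairs allow, adjusted p = 0.33 over 4 types). The order in day 1 replicate 1 turned with the draw, since over 20 other draws neutrophils there averaged 6.23%, above columnar cells, and were lower than these in 2 of the 20, against 20, 19 and 20 draws in the other libraries. The mean difference of -6.54 points was -5.07 over those draws. With thinning to 2000 UMIs it was 6.51 over the day 1 libraries alone, since fewer than 20 neutrophils of day 3 and of day 6 reached that depth. That value is therefore not the same comparison.

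A single mitotic gene did not set columnar cells apart from neutrophils. At least 1 of the 10 genes was found in 19.1%, 18.9%, 51.4% and 41.7% of columnar cells and in 24.7%, 22.6%, 43.3% and 36.4% of neutrophils. With 1 gene the columnar share was thus lower than that of neutrophils in both day 1 libraries, while with 2 genes it was lower in day 1 replicate 1 alone, on average over the other draws.

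**Figure D1:**
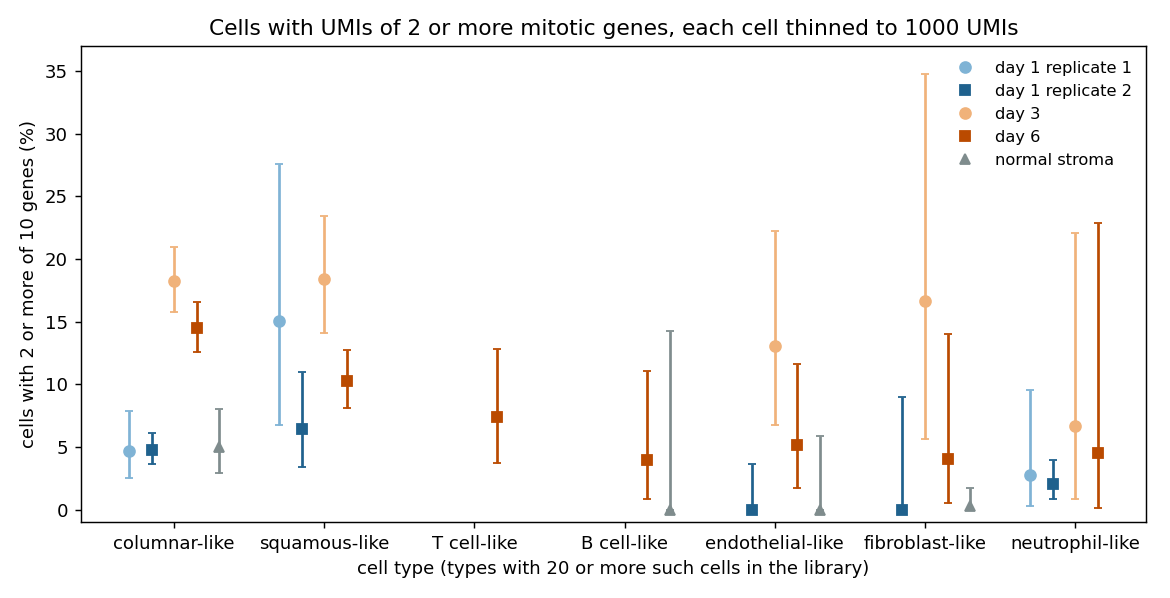
Share of cells (%) with UMIs of at least 2 of the 10 mitotic genes, each cell thinned to 1000 UMIs, by cell type on the horizontal axis and library by color and symbol, for types with at least 20 such cells in a library. Bars are 95% exact binomial intervals. Columnar cells lie at 4.69% and 4.78% in the day 1 libraries and at 18.2% and 14.5% on days 3 and 6.

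In squamous cells, a stratified epithelium that normal colon lacks, 8 of 53 cells (15.1%) of day 1 replicate 1 and 12 of 186 (6.45%) of day 1 replicate 2 passed, against 52 of 282 (18.4%) on day 3 and 73 of 710 (10.3%) on day 6. The early libraries differed from each other by more than the late mean (14.4%) differed from the early mean (10.8%), and the ranges overlapped. The difference of 3.59 points (exact permutation p = 0.667) turned to -0.734 without day 1 replicate 2 and to -0.491 without day 3. Within single index libraries it was 3.35 points and within dual index libraries 3.83. Median depths were 4876, 2532.5, 3204 and 5615.5 UMIs.

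Squamous and columnar cells were set against each other within each library. The squamous share was higher in 3 of 4 libraries and lower on day 6, although on day 3 it was the lower one in 14 of 20 other draws, with a mean difference of 2.03 points (SD 6.11, from -4.19 to 10.4, exact sign-flip p = 0.625). Day 1 replicate 1 alone kept the mean above 0, since it was -0.766 without that library, and -0.467 with thinning to 500 UMIs. No order of the 2 epithelia in mitotic share could be read from these libraries.

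Stromal and lymphoid cells were few, and the draw of UMIs moved their shares. Endothelial cells, counting blood and lymphatic vessels together, had 0 of 100 on day 1 replicate 2 (which allows a share of up to 3%), 11 of 84 (13.1%) on day 3 and 5 of 97 (5.15%) on day 6. Most day 3 vessels were blood endothelial (83 cells), most day 6 vessels lymphatic (84 cells, 4.76%), so the time points compare different vessels. Fibroblasts had 0 of 39 on day 1 replicate 2 (which allows up to 7.69%), 5 of 30 (16.7%) on day 3 and 2 of 49 (4.08%) on day 6. Over 20 other draws the day 3 fibroblast share ranged from 3.33% to 20% with a mean of 12.2%, and that of day 6 had a mean of 1.02%. Columnar markers in endothelial cells and fibroblasts had 0.648 and 0.585 times the columnar CPM on day 3, and 0.311 and 0.246 times on day 6. For the summed mitotic genes the ratios were 0.772 and 0.780 on day 3, and 0.499 and 0.280 on day 6. Whether RNA of columnar cells added to these shares was not tested.

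Among the tumor libraries lymphocytes reached 20 cells on day 6 alone. There 11 of 149 T cells (7.38%, 95% exact interval 3.74% to 12.8%) and 3 of 76 B cells (3.95%, 0.822% to 11.1%) passed, and B cells averaged 7.83% over the 20 other draws, neutrophils 6.14%. The neutrophils of day 6 had 1 of 22 cells (4.55%, 0.115% to 22.8%), and the intervals of T, B, endothelial and fibroblast cells all included that value, so no difference from neutrophils was detectable at this depth. 1 T cell held 5 of the genes and 1 held 6. In the libraries where each could be compared, the share of endothelial cells minus that of columnar cells was -6.41 points and that of fibroblasts -5.57 points (lower in 3 of 3 libraries each, exact sign-flip p = 0.25, the smallest 3 pairs allow).

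In untreated colon the columnar cells that passed lay in 1 of the 2 columnar clusters. Of all columnar cells of the normal library 16 of 319 (5.02%) passed, all 16 in the cluster led by Clca3b and Nxpe2 (16 of 127, 12.6%). The other columnar cluster, led by Tgm3 and Car1, a carbonic anhydrase of colonocytes, had 0 of 192, which allows up to 1.56%. Clca3b was also a goblet marker here, and no columnar marker was among the 10 leading genes of its cluster. Ube2c, a member left out of the clustering, was among those leading genes. Outside the epithelium 3 of 33 plasma cells (9.09%, 95% exact interval 1.92% to 24.3%), 2 of 65 macrophages (3.08%, 0.375% to 10.7%, both cells with at least 3 of the genes), 1 of 61 muscle cells (1.64%) and 1 of 327 fibroblasts (0.306%) passed. Endothelial cells had 0 of 61 (up to 4.92%) and B cells 0 of 24 (up to 12.5%). With 1 untreated library, prepared another way, no test against the tumors was made.

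Clusters of columnar tumor cells differed widely within a library. The cluster led by Mt4, with the highest level of Lgr5, a receptor of crypt stem cells, had 2.70% in day 1 replicate 1 (148 cells), 1.86% in day 1 replicate 2 (377 cells) and 4.35% on day 3 (23 cells). After thinning it was the lowest among columnar clusters of at least 20 cells in each of these libraries. Its exact interval met that of another columnar cluster in each, and the day 3 share rested on 1 passing cell (0.11% to 21.9%). Without thinning it was the lowest in none, with 40.5% in day 1 replicate 1 against 36.8% and 31.7% in shallower clusters. Its summed mitotic level was the lowest in day 1 replicate 1 and on day 3. In day 1 replicate 2 that level was 252 CPM, against 195 CPM in the Clca4a cluster. Day 3 reached 24.5% in the cluster led by Gm7808 and Gpx2, at a median of 1761 UMIs, and 14.3% and 13.7% in its other large clusters. Without thinning these shares were 45.6%, 65.6% and 65.4%.

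Day 6 was split between a cluster led by Pigr and Hist1h2ap (20.2%, median 1317 UMIs), one led by Gsdmc4 and Adh1 (14.5%, median 13839 UMIs) and one led by Clca4b (4.20%). The last had the highest level of Krt20, a keratin of differentiated colonocytes, with 2790 CPM against 921 and 472 CPM in the other clusters. Ube2c, a member left out of the clustering, was the third leading gene of the Pigr cluster. Without thinning the Pigr, Gsdmc4 and Clca4b clusters had 32.3%, 70.9% and 42.3%. Without the Lgr5-high cluster, which held 148 of the 277 early cells of replicate 1, the late columnar share was 9.98 points above the early one, against 11.6 with it.

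Squamous clusters also differed within day 6. The cluster led by Trp63 (681 CPM), a regulator of stratified epithelium, had 15.4%, the cluster led by Calm4 and Krt10, a suprabasal keratin, 12.8%, and the cluster led by Ltf and Psca 4.12%. The interval of the last (2.15% to 7.09%) met neither of the others (11.4% to 20.2% and 7.63% to 19.7%). These are intervals over cells of 1 library and no test over animals. Without thinning the Trp63, Calm4 and Ltf clusters had 52.3%, 22.6% and 45.7%, at medians of 5579, 1475.5 and 8062 UMIs. The Calm4 cluster was then the lowest, so the order depended on thinning.

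**Figure D2:**
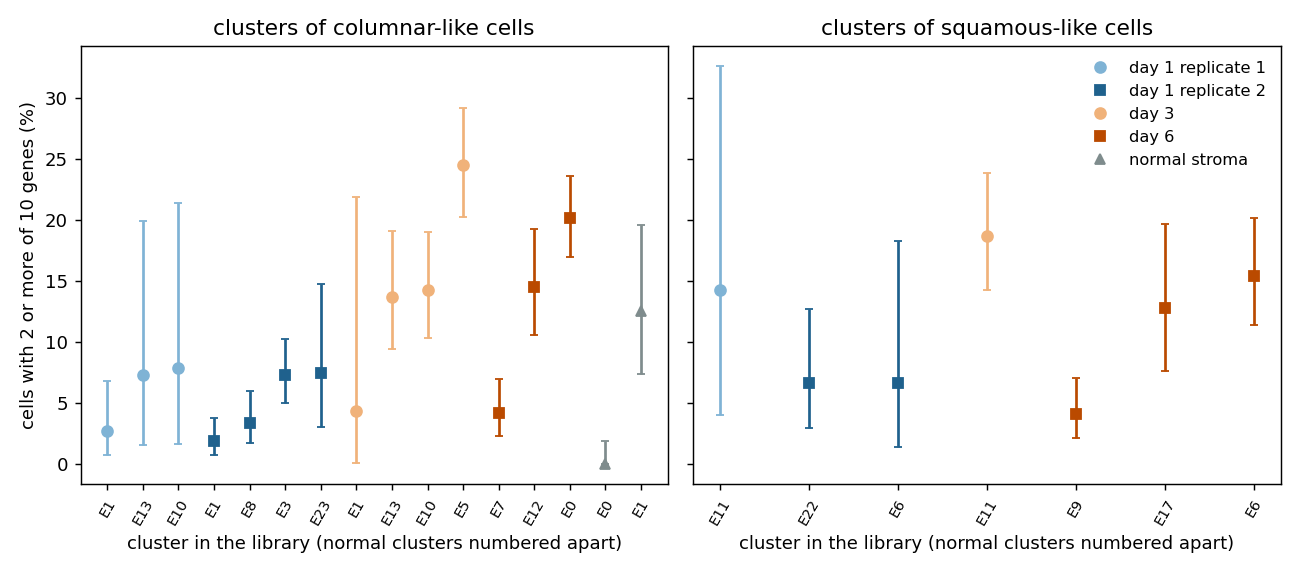
Share of cells (%) with UMIs of at least 2 of the 10 mitotic genes by cluster and library, columnar clusters left and squamous clusters right, with 95% exact binomial intervals and clusters numbered as E0, E1 and so on. E1 of the tumor libraries is the Lgr5-high cluster, E3 is led by Clca4a, E5 by Gm7808, E0 by Pigr, and clusters of the normal library carry their own numbers. E5 on day 3 (24.5%) and E0 on day 6 (20.2%) are highest and E1 lies between 1.86% and 4.35%.

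Counts were next summed over all cells of a class in each library and scaled by TMM (a scaling by the bulk of genes), so that each value below is a level in CPM, in the order of libraries given above. In columnar cells the kinase Cdk1 had 42.7, 21.6, 165 and 91.5 CPM, and its cyclin, Ccnb1, 13.3, 11.2, 48.7 and 58.3 CPM. Both late libraries were above both early ones for either gene. Plk1 had 40.4, 25.4, 181 and 86.5 CPM. The Aurora kinases followed with 15.3, 10.6, 51.0 and 29.4 CPM for Aurka and 7.79, 5.39, 49.9 and 26.4 CPM for Aurkb. For these 3 kinases and for Cdk1, day 3, a single index library, was the highest.

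Top2a had 66.4, 86.2, 186 and 280 CPM, and Ube2c 49.6, 41.4, 178 and 205 CPM. Mki67 had 25.4, 37.5, 45 and 77.7 CPM. Day 6, a dual index library, was the highest for all 3. The kinetochore genes were counted least, with 1.73, 3.67, 4.14 and 13.7 CPM for Bub1 (6 to 96 counts a library) and 4.91, 5.39, 6.73 and 11.7 CPM for Cenpf (17 to 82 counts). Bub1 and Cenpf on day 3 lay closer to the day 1 libraries than to day 6.

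All 10 genes thus had both late libraries above both early ones in columnar cells, as did 24.4% of the 13494 genes tested. None passed the test, edgeR's quasi-likelihood test with Benjamini-Hochberg adjustment, which called 0 of 13494 genes (0%) at an adjusted p of 0.05, while 2276 genes and 7 of the 10 had an unadjusted p under 0.05. DESeq2 called 667 genes, 6 members among them. The log2 fold changes of the members, late over early, were all above 0 with a median of 1.83, against 0.03 over all genes.

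Aurkb differed most, by 2.55 on the log2 scale (SE 0.50, edgeR adjusted p = 0.175), and then Ccnb1 by 2.13 (SE 0.36, adjusted p = 0.16), Ube2c by 2.07 (SE 0.35, adjusted p = 0.16), Plk1 by 2.03 (SE 0.50, adjusted p = 0.191) and Cdk1 by 2.00 (SE 0.50, adjusted p = 0.191). Bub1, Aurka and Top2a differed by 1.67 (SE 0.74), 1.64 (SE 0.45) and 1.61 (SE 0.39). The smallest values were those of Mki67, 0.96 (SE 0.43, adjusted p = 0.319), and Cenpf, 0.84 (SE 0.52, adjusted p = 0.444). Each gene was higher late within the single index and within the dual index libraries, from 0.43 (Cenpf) to 2.64 (Aurkb) and from 1.04 (Mki67) to 2.35 (Ccnb1). With the library structure as a block 863 genes and 7 members were called, and without the Clca4a cluster 0 genes, with a median of 1.78 over the members.

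**Figure D3:**
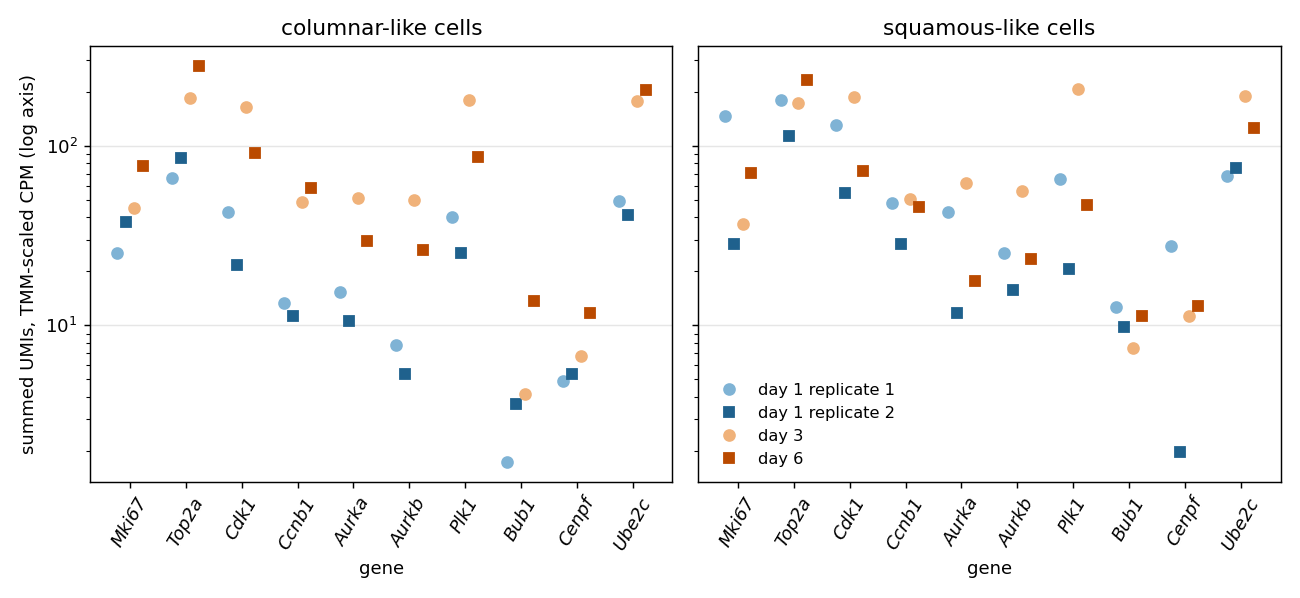
Level of each mitotic gene in UMIs summed over columnar (left) and squamous cells (right) of the 4 tumor libraries, as TMM-scaled CPM on a log axis, with 1 point a library. In columnar cells the day 3 and day 6 points lie above both day 1 points for all 10 genes, in squamous cells for Ube2c alone.

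In squamous cells the same genes overlapped between early and late libraries, with 1 exception. Ube2c had 68.1, 75.5, 189 and 126 CPM, so that both late libraries were above both early ones, as in 16.6% of the 9791 genes tested, and differed by 1.12 (SE 0.48, edgeR adjusted p = 0.999). Mki67 was highest in day 1 replicate 1 (146, 28.4, 36.5 and 70.9 CPM) and its change was -0.63 (SE 0.73). Cdk1 had 131, 54.9, 187 and 72.7 CPM, Plk1 65.6, 20.6, 209 and 46.9 CPM, and Top2a 179, 114, 174 and 233 CPM.

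Changes of 7 of the 10 were above 0, with a median of 0.49 against 0.04 over all genes. The median was 1.15 with 9 of 10 above 0 without day 1 replicate 1, -0.017 with 4 of 10 without day 1 replicate 2, 0.18 with 7 of 10 without day 3 and 0.75 with 7 of 10 without day 6. Here edgeR called 0 of 9791 genes (0%), with 395 genes and 1 member at an unadjusted p under 0.05. DESeq2 called 21 genes and no member. Among the library values, the small day 1 replicate 1 sum (53 cells) stood above day 1 replicate 2 for all members but Ube2c. Without it the change of Mki67 was 0.93 and that of Cenpf 2.59, in place of -0.63 and -0.05. In endothelial cells 6 members were counted often enough to be tested, 4 of them above 0, and edgeR called 0 of 7031 genes (0%), with 668 genes and no member at an unadjusted p under 0.05, DESeq2 47 genes. In fibroblasts no member was counted often enough.

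The difference between the 2 epithelia was tested itself, as the interaction of type and period. The change in squamous cells was below that in columnar cells for all 10 genes, with a median of -1.20 against -0.05 over all genes. No member passed edgeR's test, which called 5 of 13300 genes (0.0376%). 5 members and 1255 of the 13300 genes had an unadjusted p under 0.05, and DESeq2 called 75 genes and no member. The largest were Bub1 with -1.81 (SE 0.82, adjusted p = 0.540), Ccnb1 with -1.75 (SE 0.42, adjusted p = 0.196), Aurkb with -1.62 (SE 0.47, adjusted p = 0.286) and Cdk1 with -1.57 (SE 0.37, adjusted p = 0.192). Those of Plk1 and Cenpf were -0.56 (SE 0.51) and -0.52 (SE 1.03). Without day 1 replicate 1, Mki67 turned to 0.18 and Cenpf to 1.81, and without day 3 edgeR called 988 genes and 3 members.

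**Figure D4:**
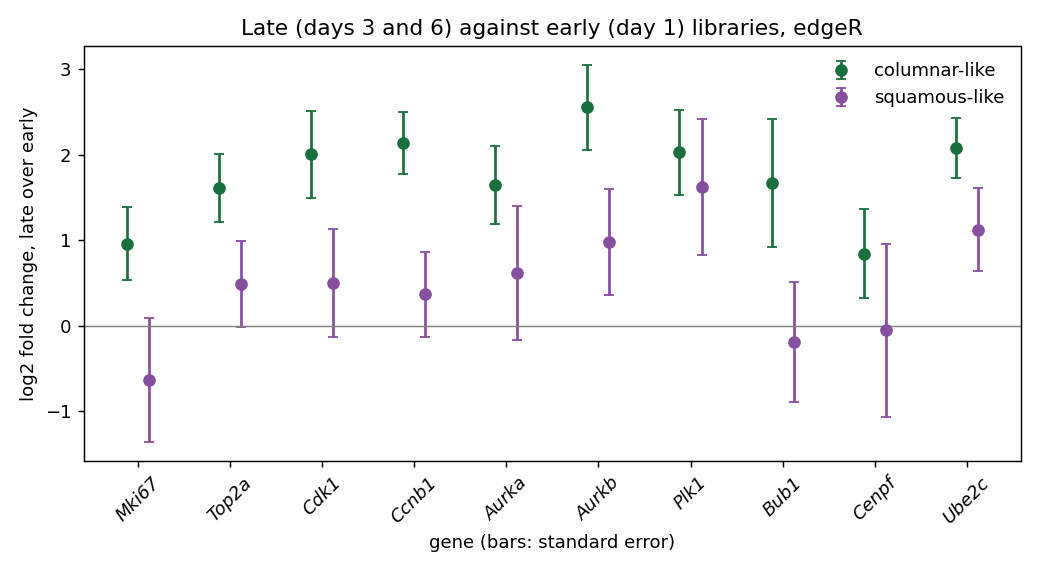
Log2 fold change of late (days 3 and 6) over early (day 1) libraries for each mitotic gene in columnar and squamous cells, as edgeR's estimate. Bars are 1 standard error, worked back from the F statistic of the test. All 10 columnar values lie above 0, from 0.84 (Cenpf) to 2.55 (Aurkb), and the squamous value is lower for each gene.

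Other lists of cell cycle genes were set beside the members in columnar cells. No gene of any list passed edgeR's test in the late against early comparison, the lists were not tested against each other, and 51.4% of all genes tested were above 0. Of 45 other G2 and M genes tested, 41 were above 0 with a median of 1.29. Of 41 S phase genes 34 were above 0 with a median of 0.65, and Pcna, the DNA polymerase clamp, had 1.05 (SE 0.36, adjusted p = 0.238). Of 24 spindle checkpoint and APC/C genes 16 were above 0 (median 0.60). G1 cyclins, kinases and E2F genes had a median of 0.04 over 12 genes, mitotic transcription factors -0.03 over 13 and inhibitors of the cycle -0.12 over 14. Cdkn1a, the p53-driven inhibitor p21, had -0.02 (SE 0.52) and Ccnd2, cyclin D2, -0.37 (SE 0.44). In squamous cells the medians were 0.36 for other G2 and M and -0.05 for S phase genes, and no gene passed.

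Between cell types of the same libraries, 1 fit over 23 sums compared each type with columnar cells over 11149 genes, 9 of the members among them (Bub1 was counted too rarely). In squamous cells 0 of 9 members and 1907 genes (17.1%) were called, no member had an unadjusted p under 0.05, and DESeq2 called no member. 8 of 9 values were above 0, with a median of 0.32 against -0.03 over all genes, the highest being Aurkb at 0.70 (SE 0.41, edgeR adjusted p = 0.297). The median was 0.12 with 5 of 8 above 0 without day 1 replicate 1, 0.19 with 8 of 9 without the Lgr5-high columnar cluster, and 0.58 with 9 of 9 without day 6. Of 29 S phase genes tested 3 passed, Rrm1, Prim1 and Rrm2, all higher in squamous cells (Rrm1 0.91, SE 0.30, edgeR adjusted p = 0.0344). This stands beside the 17.1% of all genes called in either direction. Rrm1 and Rrm2 are subunits of ribonucleotide reductase and Prim1 of primase. Of 11 G1 cyclins, kinases and E2F genes Ccnd2 alone was called, and it was lower (-1.18, SE 0.30, adjusted p = 0.00578). Of 14 inhibitors and brakes of the cycle 1 was called higher and 2 lower (Cdkn1c, Cdkn2d and Ccng2).

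In tumor fibroblasts all 9 members were below columnar cells, with a median of -1.38 against -0.19 over all genes (-0.78 without day 6). Plk1 was lower (log2 fold change -1.45, SE 0.47, edgeR adjusted p = 0.0249), in 4 of 4 libraries, and was the only member among the 2390 genes called (21.4% of 11149, 9.75% called lower). 4 members and 3648 of the 11149 genes had an unadjusted p under 0.05 by edgeR, and DESeq2 called no member. The call of Plk1 ended with DESeq2 (-1.20), with DESeq2's size factors in edgeR (-1.17), at a clustering resolution of 2 (-1.26), and without day 1 replicate 2 (-1.07) or day 6 (-1.27), and it rested on 1, 1, 10 and 4 fibroblast counts in the libraries. Top2a had -1.01 (SE 0.39, adjusted p = 0.0688) and Ube2c -1.39 (SE 0.51, adjusted p = 0.0508).

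Bub1 and Cenpf had 0 counts in 552785 UMIs of tumor fibroblasts. Taking 3 counts over all of them as the limit, they were at least 1.13-fold and 1.33-fold lower than in columnar cells. Of 37 other G2 and M genes 6 were called lower, Birc5, Tmpo, Ccnb2, Cdca3, Hn1 and Ect2, and none higher. Of 11 G1 cyclins, kinases and E2F genes 2 were lower as well, the D cyclins Ccnd1 and Ccnd2 (Ccnd2 -1.42, SE 0.32, edgeR adjusted p = 0.00133).

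Endothelial cells had 0 of 9 members among 2460 genes called (22.1%), with a median of -0.44 against -0.12 over all genes (-0.84 without day 1 replicate 1, -0.16 without day 1 replicate 2 and -0.14 without day 6). 1 member, Mki67, had an unadjusted p under 0.05 by edgeR (-1.30, SE 0.54, adjusted p = 0.0897), as had 3549 of the 11149 genes. DESeq2 called no member. T cells (1057 genes called, 9.48%) and B cells (399, 3.58%) had 0 members called by edgeR or DESeq2 and none with an unadjusted p under 0.05. Neutrophils had 0 of 9 among 1560 (14%), also none by DESeq2 or at an unadjusted p under 0.05, with 7 of 9 above 0 and a median of 0.26 against -0.25 over all genes. This direction rested on day 1 replicate 1, the library with the 2 large neutrophils, since without it 0 of 8 members were above 0 (median -0.43), as with the highest Scrublet scores removed (0 of 8, median -0.27), and without any of the other libraries the median was 0.61 to 0.67. In T and B cells of day 6 the summed mitotic level, 581 and 579 CPM, was 0.798 and 0.795 times that of columnar cells, and the columnar markers 0.370 and 0.391 times.

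Within a class, detection of 1 member went with detection of another. If each gene were detected independently at its own rate, 2.68% and 2.46% of early columnar cells would have had at least 2 genes, against 4.69% and 4.78% measured, or 1.75 and 1.94 times as many. On day 3 the measured share (18.2%) was 1.03 times the independent one (17.7%), and on day 6 1.18 times (14.5% against 12.3%). In squamous cells the ratio lay between 1.12 (day 3) and 1.48 (day 1 replicate 2), and in columnar cells of normal colon 2.17. In neutrophils it was 0.703 to 0.876 on 1 to 8 cells, but this too turned with the draw, with mean ratios of 1.49, 1.20, 0.781 and 1.41 over 20 other draws. The columnar ratios averaged 1.53, 1.79, 1.07 and 1.17 over those draws and were above 1 in all 20 in every tumor library, while squamous ratios fell below 1 in 2 draws of day 1 replicate 1 and 5 of day 3.

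44 of 45 pairs of members were found together more often than the product of their rates in columnar and likewise in squamous cells, summed within libraries. Mki67 with Top2a was seen in 49 columnar cells against 24.3 under independence, Ccnb1 with Plk1 in 30 against 10.6, and Top2a with Ube2c in 91 against 59.4. Cells within a library also differ in cluster and in depth. Thinning gave every cell the same number of UMIs, but passing columnar cells still differed in depth before thinning from those with none of the genes. Their medians were 9877 against 7054, 2983 against 6019, 2542.5 against 3504 and 1738 against 3103 UMIs, in the order of the tumor libraries. How far this moved the shares was not tested. The comparisons with independent detection are descriptions over cells that share libraries.

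**Figure D5:**
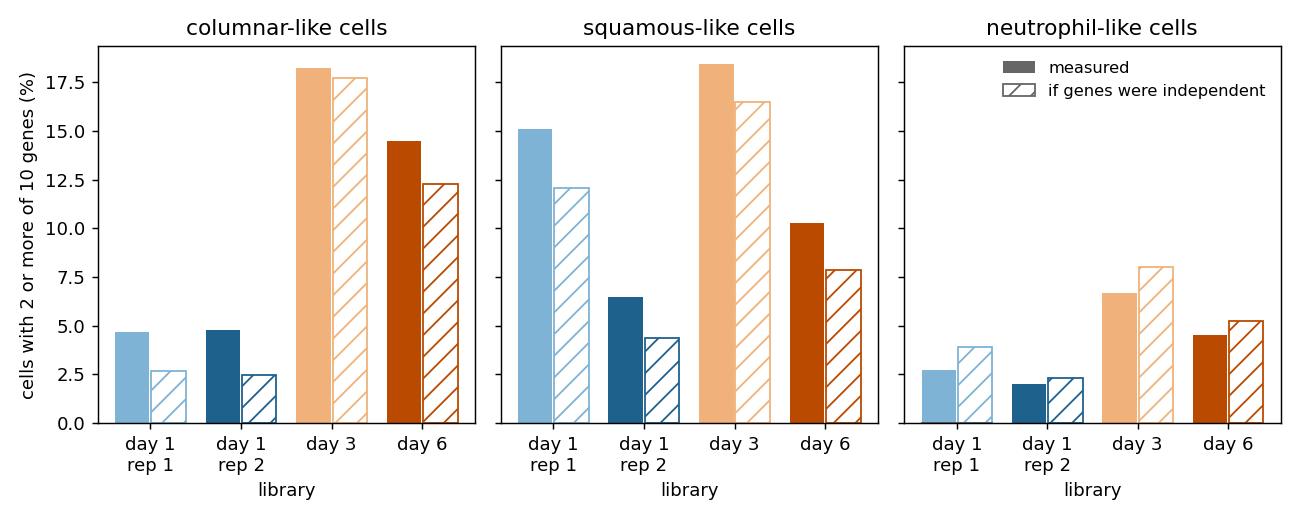
Share of cells (%) with at least 2 of the 10 mitotic genes as measured (filled bars) and as it would be if each gene were detected independently at its own rate (hatched bars), by library, in columnar, squamous and neutrophil cells thinned to 1000 UMIs. Measured bars exceed hatched ones in columnar and squamous cells, least on day 3 in columnar cells (18.2% against 17.7%), and fall short in neutrophils in the draw shown, where over 20 other draws the mean ratio of measured to independent share was above 1 in 3 of the 4 libraries.

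Cells with at least 2 members also differed in genes outside the list from cells with none. In columnar cells the largest mean log2 ratio over the 4 tumor libraries (20 CPM added) was that of 2810417H13Rik (2.57, from 1.61 to 3.62), followed by Ccna2, cyclin A2 (2.38), the histone gene Hist1h2ap (2.29), Pbk (2.21) and the condensin subunit Smc4 (2.20). In squamous cells Ccna2 (2.39), Cenpa, the centromeric histone (2.25), and Incenp, a partner of Aurora B (2.24), led. 31 of 33 other G2 and M genes and 23 of 31 S phase genes measured were higher in all 4 libraries in columnar cells, as were 18.6% of 9112 genes. Of 12 inhibitors and brakes of the cycle measured in columnar cells, Btg1 and Ccng2 were lower in all 4, Cdkn1b and Rbl1 higher in all 4 and the other 8 mixed. Only 2 were measured in squamous cells. There Cdkn1a was lower in all 4 (-0.20, from -0.31 to -0.06) and Btg1 was mixed (-0.26, from -1.13 to 0.23). The share of all genes lower in all 4 is not given here, so these cannot be set against it. The cells were split by counts of genes that rise and fall with these, so no test was made.

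Across all classes and libraries with at least 20 cells (43 sums), the genes whose log2(CPM + 20) was most like that of the summed members were Ccna2 (Pearson's r 0.908), Cdca3 (0.890), Birc5, survivin (0.876), Cdca8, a partner of Aurora B (0.865), and Tpx2, an activator of Aurora A (0.853), and then Tk1, Incenp, Spc24, Melk and Cks1b (0.842 to 0.822), among 13838 genes. The sums share libraries and depth, and r is given as a description. Among the members themselves r with the sum ran from 0.547 (Bub1) to 0.897 (Top2a).

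The part of the mitotic counts that each member took was set beside the library structure in the tumor libraries, without a test. In columnar and in squamous tumor cells Cdk1, Aurka and Plk1 took a larger part of the mitotic counts in both single index libraries than in both dual index tumor libraries, and Top2a and Bub1 a smaller one. Mki67, Aurkb, Cenpf and Ube2c overlapped between the structures in both types, and Ccnb1 in columnar cells. How many of all genes part in this way was not counted, so no result about the members can be read from it. For Bub1 in squamous cells the structures nearly met, at 1.69% (5 of 296 counts in day 1 replicate 1) against 1.70%. In columnar cells Top2a made up 20.3% and 24.8% in the single index libraries and 31.8% and 34.7% in the dual index tumor libraries, and Cdk1 16.0% and 18.0% against 8.71% and 10.4%. The normal library, also dual index, had 25.5% for Top2a and 10.9% for Cdk1. Since day 3 was a single index and day 6 a dual index library, the order of day 3 and day 6 in the levels given above cannot be told apart from the structure for any member.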

How the data were processed

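Single cells of 4 AOM/DSS tumor libraries and 1 normal library were profiled by inDrop. The authors aligned reads with dropEst to GRCm38.85 and deposited raw UMI counts per gene and cell, with no normalization, and no count was altered here. Cells with at least 500 genes and at most 15% mitochondrial counts were kept. They were clustered (Scanpy 1.11.5, 2000 variable genes, 20 principal components, 20 neighbours, Leiden resolution 1), without the members and the S and G2/M lists, and named from at least 3 markers. Shares were taken in types with at least 20 cells of 1000 UMIs in a library and compared over libraries by exact permutation tests. Counts summed per library and type, from at least 10 cells, were tested with edgeR 4.0.16 (TMM, filterByExpr, quasi-likelihood test, library as a block between types), with Benjamini-Hochberg adjustment over all genes tested, and with DESeq2 1.42.0 as an alternative. Each SE of an edgeR value was worked back from its test, as the absolute log2 fold change over the square root of the F statistic. The edgeR fits were tested on simulated data. Named genes were the members, up to 3 of the most counted genes of each list, the 10 genes most like the members and the 10 with the largest ratio between cells with 2 members and none, while called list genes were named after their values were seen. The members, lists, markers and rules were chosen with earlier results of these data known. The study calls the day 1 libraries biological replicates, the labels name no animals, and p-values measure the spread between these libraries only. Between types, all sums of the fit shared 1 estimate of the spread. Promoters came from RefSeq, positions from GENCODE vM21. The promoter of Aurkb was not analysed here.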

Additional observations from a re-analysis of the deposited data

Results flagged for a closer look

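Paneth cells belonged to none of the comparisons and stood above the neutrophils of their own library in 2 of 3 tumor libraries. In day 1 replicate 1, 21 of 216 Paneth cells (9.72%, 95% exact interval 6.12% to 14.5%) had at least 2 of the mitotic genes after thinning, against 2.74% of neutrophils (6.23% on average over 20 other draws of UMIs, up to 9.59%). On day 3 it was 14 of 89 (15.7%, 8.88% to 25.0%), against 6.67%. In day 1 replicate 2 it was 1 of 93 (1.08%), against 2.04%. The comparison of Paneth cells with neutrophils was not tested over libraries.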

How the results depend on the processing

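No paired analysis was possible because the early and late groups share fewer than 2 replicate numbers, and library structure, which held 1 early and 1 late library each, was used as a block instead. The late minus early share of columnar cells kept its direction under every alternative run. The squamous minus columnar share (2.03 points) turned to -0.467 with thinning to 500 UMIs and -0.649 without thinning, and ranged from -0.766 to 4.10 over the fits without 1 library. The late minus early share of squamous cells (3.59) ranged from -0.734 to 7.91 without 1 library. That of neutrophils (3.22) turned to -0.685 at 500 UMIs and -1.62 with 3 or more genes, and that of fibroblasts (10.4) became 0 with 3 or more genes. Neutrophils minus columnar cells (-6.54) became 6.51 at 2000 UMIs, where only the day 1 libraries kept enough neutrophils. The cause was not tested for any of these. Leaving out single columnar clusters and counting the draws in which an order held were chosen after seeing the data.

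Calls between early and late libraries depended on the tool. In columnar cells, with 0 genes called by edgeR, DESeq2 called 667 genes and 6 members, no filter on low counts 1158 and 7, the library structure as a block 863 and 7, secretory clusters added 1 gene, and fits without 1 library 2 to 1836 genes and 0 to 8 members. In squamous cells (0) the counts of genes were 21 by DESeq2, 99 with no filter, 11 with the structure block and 10 to 50 without 1 library. In fibroblasts (0) they were 11, 42 and 3 to 175, and in endothelial cells (0) 47, 142 and 0 to 532, with 0 to 1 member, by DESeq2, with no filter and without 1 library. For the interaction (5 genes) they were 75 by DESeq2, 387 with 2 members lower with no filter, 9 at resolution 0.5, 11 with secretory clusters added, 0 without the Lgr5-high cluster, and 0 to 988 with 0 to 3 members without 1 library.

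Between types, genes called without 1 library ranged from 1148 to 1742 in squamous (1907), 226 to 1131 in T (1057), 1473 to 2359 in endothelial (2460), 1186 to 2287 in fibroblast (2390) and 705 to 1551 in neutrophil comparisons (1560), and fibroblast genes fell to 1043 at resolution 2. Members lower in fibroblasts (1) were 0 by DESeq2, with its size factors and at resolution 2, 5 with no filter, 3 with the highest Scrublet scores removed, 4 without the Lgr5-high cluster and 0 to 4 without 1 library. Members lower in endothelial cells (0) were 1 with no filter, 1 without the Lgr5-high cluster and 0 to 1 without 1 library, and in neutrophils (0) 1 with no filter.

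Single members whose log2 fold change turned in sign were these, with ranges over the fits without 1 library. In squamous cells, late against early, Bub1 (-0.19) became 0.15 with the highest Scrublet scores removed and ranged from -0.54 to 0.047 (above 0 without day 3). Cenpf (-0.05) became 0.036 with those scores removed and 0.40 with the structure block, and ranged from -1.20 to 2.59 (above 0 without day 1 replicate 1 or day 3). Mki67 (-0.63) ranged from -1.44 to 0.93 (above 0 without day 1 replicate 1). Cdk1 (0.50) ranged from -0.31 to 1.23 and Aurka (0.61) from -0.46 to 1.72 (below 0 without day 1 replicate 2 or day 3, where the former gave Cdk1 -0.028 and Aurka -0.15), and Ccnb1 (0.37) from -0.0060 to 0.75 (below 0 without day 1 replicate 2). In the interaction, Cenpf (-0.52) became 0.031 without the Lgr5-high cluster and ranged from -2.03 to 1.81, Mki67 (-1.31) ranged from -2.64 to 0.18, both above 0 without day 1 replicate 1, and Plk1 (-0.56) from -1.10 to 0.00057. In squamous against columnar cells, Plk1 (-0.06) became 0.0051 with DESeq2 and 0.014 with its size factors and ranged from -0.24 to 0.22, Mki67 (0.31) from -0.16 to 0.63 and Aurka (0.22) from -0.030 to 0.58, the last 2 below 0 without day 1 replicate 1. In endothelial against columnar cells, Cenpf (-0.04) became 0.089 with DESeq2, 0.15 with its size factors, 0.0084 with secretory clusters added, 0.11 without day 3 and 0.35 without day 6, Cdk1 (0.20) ranged from -0.41 to 0.51 and Aurka (-0.22) from -0.83 to 0.17.

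Of the other values, 469 of shares and counts and 666 of single members kept their direction and side of the threshold or stayed within their limits. Depth was a limit for Bub1 and Cenpf and for every stromal and lymphoid class, where shares rest on few cells and the draw of UMIs moved them. With 2 early and 2 late libraries the share comparisons cannot reach the threshold at all.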
